A study of Mus musculus with 36 samples.

Results

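miR-150 is a microRNA (miRNA) whose hairpin precursor gives a product from each of its arms, miR-150-5p and miR-150-3p. Both mature names, mmu-miR-150-5p and mmu-miR-150-3p, were taken from the count tables by exact name, and each had 1 entry in every library, so 2 of the 1966 mature names are described here across 36 libraries in 10 groups of genotype and time. The libraries hold small RNA of C57BL/6J mouse CD4 T cells, sorted from spleen as CD4+ TCRb+ cells and either left naive or cultured under T helper 2 (Th2) conditions. The AGO1/3/4 experiment compared AGO134KO cells, which lack the Argonaute proteins AGO1, AGO3 and AGO4, with littermate wild-type (WT) cells when naive (4 and 4 libraries), at Th2 day 7 (4 and 4) and at Th2 day 14 (3 and 3). The AGO2 experiment compared CD4Cre;R26LSLeYFP;AGO2f/f cells (AGO2KO) with CD4Cre;R26LSLeYFP cells (Cre) when naive (4 and 3 libraries) and in Th2 culture (4 and 3). The time of that culture is 5 days in the sample labels but 7 days in the text of the series, and the sample labels are followed here. In the AGO2 experiment both genotypes carry the CD4-Cre transgene and the Cre-dependent eYFP reporter, and Ago2 is lost only where CD4-Cre has been active. miRNA counts do not measure the Ago genes, so the genotype labels were not checked. Nothing in the labels says that replicates come from separate animals, so that p-values may cover technical spread alone.

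miRNAs are loaded as a duplex into an Argonaute protein, which keeps one strand as a guide to target mRNAs and discards the other. miR-150 is a miRNA of mature lymphocytes, best known for restraining Myb, a transcription factor of lymphocyte development, and its level is known to drop when naive T cells are activated. The 5p arm is the usual guide strand of miR-150, and the 3p arm is its usual passenger. A change in the ratio of the arms therefore describes which strand of the duplex is recovered, apart from how much of the hairpin was made.

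The 3p sequence is shown because this arm had the largest increase of all miRNAs tested in AGO2KO Th2 cells. It comes from RefSeq (GRCm38.p6, chr7:45121798-45121819, plus strand), is 22 bases long with 14 G or C, and has its seed, bases 2 to 8, in capitals.
miR-150-3p: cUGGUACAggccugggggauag
None of the other mature names among the 1738 in the RefSeq table shares this seed. The Mir150 hairpin spans chr7:45121757-45121821 on the plus strand (65 bases). In GENCODE M21 it overlaps no other gene, and the nearest annotated gene is Gm45552, 96 bases downstream.

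Depth sets how firmly each value can be read. miRNA counts per library ran between 89594 and 337258 in the AGO1/3/4 experiment and between 865 and 72093 in the AGO2 experiment. An arm with no count could still hold up to 3 counts, or 8.90 to 33.5 CPM (counts per 1e6 miRNA counts) in libraries of the AGO1/3/4 experiment. In the much shallower AGO2 libraries the same floor was 41.6 to 3468 CPM. Depth moved with genotype in naive cells: miRNA counts averaged 192570 ± 73078 in AGO134KO and 296309 ± 26167 in WT libraries (SD, n = 4 each), and 13217 ± 5214 in AGO2KO and 4935 ± 5210 in Cre libraries (SD, n = 4 and 3). At Th2 day 7 the AGO134KO libraries (158414 to 236046 miRNA counts) were all shallower than the WT libraries (268019 to 337258). The same held at Th2 day 14, with 214889 to 287159 miRNA counts in AGO134KO and 306074 to 319896 in WT libraries. Th2 libraries of the AGO2 experiment held 36386 ± 17372 miRNA counts in AGO2KO and 63193 ± 12161 in Cre (SD, n = 4 and 3). Naive Cre libraries B and C stood apart, with 865 and 3133 miRNA counts, and their values rest on few reads. All 7 T cell marker miRNAs, miR-150-5p among them, had counts in every group. The myeloid miRNAs miR-223-3p and miR-223-5p had none in any group of the AGO2 experiment. In the AGO1/3/4 experiment they summed to medians of 14.3 CPM in naive AGO134KO and 23.4 CPM in naive WT libraries. Such levels lie below the floor of the AGO2 libraries, so the zero counts there do not show absence. The 6 epithelial marker miRNAs summed to a median of 2711, 818 and 539.8 CPM in AGO134KO and of 2631, 927 and 516 CPM in WT libraries when naive, at day 7 and at day 14. In the AGO2 experiment they summed to 212 CPM in AGO2KO and 162 CPM in Cre Th2 libraries, and to 296 CPM in naive AGO2KO and 185 CPM in naive Cre libraries. The 2 endothelial miRNAs summed to 187, 572 and 543 CPM in AGO134KO and to 156, 794 and 457 CPM in WT libraries over the same stages, and to 9.60 CPM in AGO2KO and 55.5 CPM in Cre Th2 libraries. In naive Cre library B, with 865 miRNA counts, the endothelial miRNAs stood at 1156 CPM, below the floor of 3468 CPM of that library. Epithelial markers were thus lower and endothelial markers higher in culture than in naive cells of the AGO1/3/4 experiment. The liver miRNA miR-122-5p had medians of 220, 435 and 34.6 CPM in AGO134KO and 198, 718 and 35.9 CPM in WT libraries over the same stages. Red cell and platelet miRNAs summed to 324, 71.8 and 172 CPM in AGO134KO and 269, 85.0 and 170 CPM in WT. Stromal miRNAs summed to 112, 69.6 and 23.0 CPM in AGO134KO and 94.7, 152 and 32.7 CPM in WT. The part of these cells and of depth in the results was not tested.

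Across the 10 groups the 5p level in CPM was highest in the naive groups of the AGO1/3/4 experiment and lowest in Cre Th2 cells. CPM is taken over all miRNA entries, miR-5099 among them. That miRNA took a larger share of miRNA counts in every AGO2 experiment library than in any AGO1/3/4 experiment library. The order between the experiments is thus a description in CPM, and the part of miR-5099 in it was not tested. In order of group mean, miR-150-5p stood at 36777 ± 3351 CPM in naive AGO134KO and 29519 ± 1649 CPM in naive WT cells (SD, n = 4 each), and these 2 groups did not overlap with each other or with the next. The next 6 groups overlapped with their neighbours in that order, namely AGO134KO day 7 (20385 ± 2487 CPM), WT day 7 (19669 ± 498 CPM), naive AGO2KO (12817 ± 8262 CPM), AGO134KO day 14 (12510 ± 2025 CPM), WT day 14 (9188 ± 1658 CPM) and naive Cre (6661 ± 2189 CPM). AGO2KO Th2 cells (5407 ± 1660 CPM) overlapped with naive Cre and lay above Cre Th2 cells (633 ± 128 CPM). Cre Th2 cells were also the lowest group for miR-150-3p, at 309 ± 58.1 CPM, below WT day 14 at 1833 ± 545 CPM. Groups other than Cre Th2 averaged between 1833 and 10397 CPM of miR-150-3p, and most neighbours in its order overlapped.

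**Figure D1:**
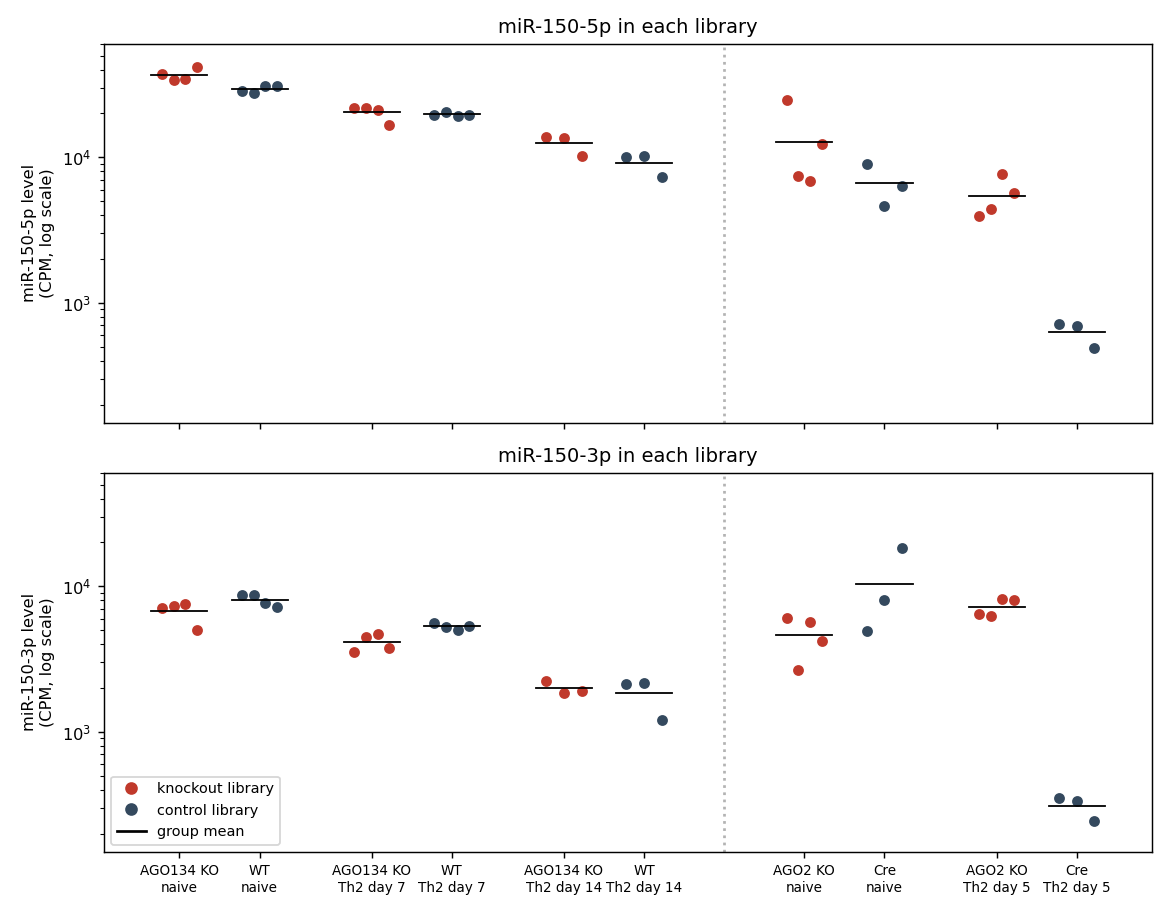
Level of miR-150-5p (top) and miR-150-3p (bottom) in each library, in CPM on a log axis, by genotype and time, with knockout libraries in red, control libraries in dark blue and a bar at each group mean. The 3 Cre Th2 libraries lie between 486 and 719 CPM for the 5p arm and between 243 and 352 CPM for the 3p arm, below every other library.

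The clearest difference at this hairpin was in Th2 cells of the AGO2 experiment, where both arms were higher in AGO2KO. miR-150-3p stood at 6491, 6297, 8198 and 7991 CPM in the AGO2KO libraries D to G (219, 82, 383 and 416 counts), against 352, 333 and 243 CPM in the Cre libraries A to C (24, 24 and 12 counts). All 4 knockout libraries lay above all 3 Cre libraries, with no overlap. miR-150-5p stood at 3942, 4377, 7641 and 5667 CPM in AGO2KO (133, 57, 357 and 295 counts), against 719, 694 and 486 CPM in Cre (49, 50 and 24 counts), again with no overlap. In these bulk samples, fewer cells of a type and less RNA per cell cannot be told apart. The 3p arm rose 29.4-fold (4.88 on the log2 scale, SE 0.45, edgeR adjusted p = 3.64e-08) and the 5p arm 10.8-fold (3.43, SE 0.47, edgeR adjusted p = 6.72e-06). Of the 98 miRNAs tested, 19.4% were called higher, 13.3% had groups that did not overlap with AGO2KO higher, and the median log2 fold change was 0.06. No other miRNA had a larger increase than the 3p arm, and 2 had a larger increase than the 5p arm, 1 of them the 3p arm itself. By abundance the 3p arm ranked 19 to 22 among the mature names in AGO2KO libraries and 110 to 125 in Cre libraries. The 5p arm ranked 21 to 28 in AGO2KO and 77 to 90 in Cre. Both calls held under each scaling tried and without any 1 library, with log2 fold changes of 4.44 to 5.05 for the 3p arm and 2.98 to 3.68 for the 5p arm when a library was left out. Relative to the STD entries, which name no miRNA and which the labels do not explain, the values were 3.13 for the 3p arm (edgeR adjusted p = 1.10e-06) and 1.67 for the 5p arm (edgeR adjusted p = 0.00590), while the median of all miRNAs moved to -1.59.

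The arm that was recovered more often also differed between these Th2 groups. In AGO2KO Th2 libraries there were 1.65, 1.44, 1.07 and 1.41 counts of the 3p arm per count of the 5p arm, against 0.490, 0.480 and 0.5 in Cre Th2 libraries. The 3p arm was thus the majority in every knockout library and the minority in every control library. Its share of both arms was 62.2%, 59.0%, 51.8% and 58.5% in AGO2KO, against 32.9%, 32.4% and 33.3% in Cre. The Wilson 95% interval of library F, the lowest of the knockout libraries, reached down to 48.2%. The ratio rose by 1.48 on the log2 scale (SE 0.46, edgeR test on paired arm counts, adjusted p = 0.0158), and 4.84% of the 62 hairpins tested were called higher. A two-sided exact permutation test of the log2 ratio gave p = 0.0571, the smallest that 4 against 3 libraries allow, and 0.126 after Benjamini-Hochberg adjustment over 11 such tests. The groups did not overlap, as in 14.5% of hairpins with AGO2KO higher, and 8 hairpins had a larger increase. The call was lost when AGO2KO library D or G or any of the Cre libraries A, B and C was left out, with log2 differences of 1.39, 1.46, 1.48, 1.46 and 1.49 and edgeR adjusted p = 0.0725, 0.0578, 0.143, 0.117 and 0.0922, and with limma on the log2 ratio (1.47, adjusted p = 0.265). Among the 62 hairpins, miR-150 was the only 1 whose majority arm was 3p in every AGO2KO Th2 library and 5p in every Cre Th2 library. miR-23a had the opposite switch, with the 5p arm as the majority in AGO2KO, and this hairpin was singled out after its values were seen.

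**Figure D2:**
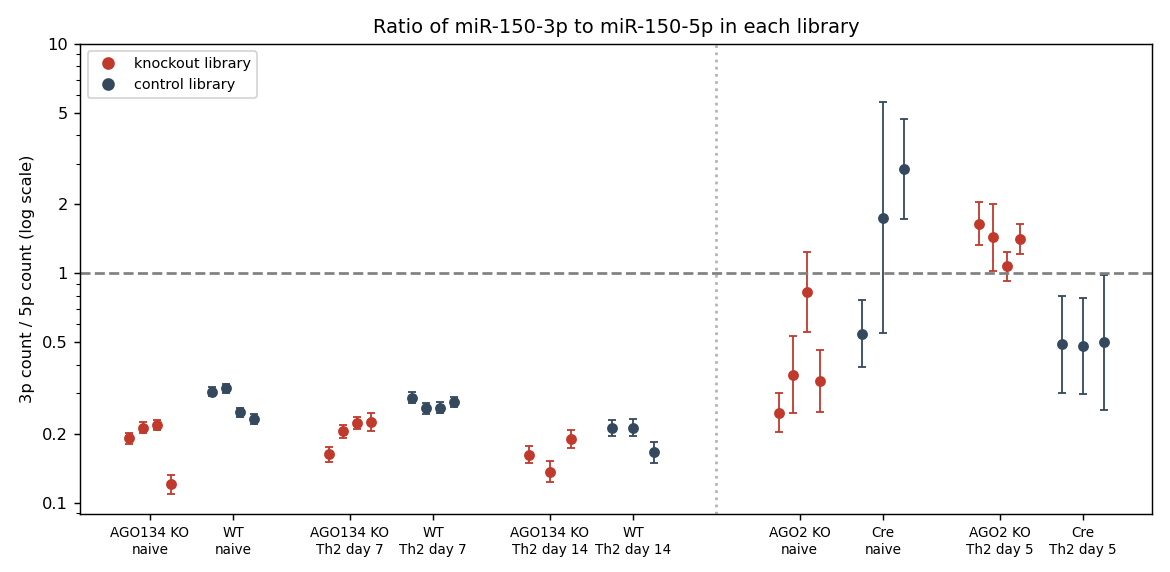
Count of miR-150-3p divided by the count of miR-150-5p in each library, on a log axis, with Wilson 95% intervals that cover counting error only and a dashed line at 1. Every AGO2KO Th2 library is above 1 and every Cre Th2 library is at 0.5 or below, while the naive Cre libraries B and C have wide intervals.

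In naive cells of the AGO2 experiment neither arm passed the test. miR-150-5p stood at 24624, 7397, 6830 and 12419 CPM in naive AGO2KO libraries D to G (498, 94, 52 and 153 counts), against 8976, 4624 and 6384 CPM in naive Cre libraries A to C (97, 4 and 20 counts). miR-150-3p stood at 6082, 2675, 5647 and 4221 CPM in AGO2KO (123, 34, 43 and 52 counts), against 4905, 8092 and 18193 CPM in Cre (53, 7 and 57 counts). Both arms overlapped between genotypes, and library D of AGO2KO and library C of Cre held the highest value of their arm. The log2 fold changes were 1.17 for the 5p arm (95% interval 0.30 to 2.04, edgeR adjusted p = 0.110) and -0.70 for the 3p arm (95% interval -1.45 to 0.05, edgeR adjusted p = 0.272), where 9.18% of 98 miRNAs were called in either direction. Without the lowest-depth Cre libraries B and C together the values were 1.17 for the 5p arm and 0.55 for the 3p arm, so that the sign of the 3p value rested on them, and without library C alone it was 0.17. The 5p value passed under DESeq2 (1.40, adjusted p = 0.0328), without naive AGO2KO library F (1.47, edgeR adjusted p = 0.0367) and without naive Cre library A (2.02, edgeR adjusted p = 0.0391).

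The naive arm ratios of this experiment were spread widely and moved with depth. They were 0.247, 0.362, 0.827 and 0.340 in AGO2KO libraries D to G, at 20224, 12708, 7614 and 12320 miRNA counts, against 0.546, 1.75 and 2.85 in Cre libraries A to C, at 10806, 865 and 3133 miRNA counts. The 3 shallowest libraries thus had the 3 highest ratios, and the part of depth in this difference was not tested. The Wilson 95% interval of the ratio in Cre library B ran between 0.548 and 5.59. The difference was -1.66 on the log2 scale (SE 0.49, edgeR adjusted p = 0.0521, two-sided exact permutation p = 0.114), and the groups overlapped. It passed when both arms were required to hold at least 10 counts (-1.65, edgeR adjusted p = 0.0154), without AGO2KO library F (-1.96, edgeR adjusted p = 0.00704) and without Cre library A (-2.79, edgeR adjusted p = 9.04e-06). Without Cre library C it was -0.82, and without B and C together -0.55 (edgeR adjusted p = 1 for both).

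Within Cre cells both arms were far lower in Th2 culture than in naive cells, whereas within AGO2KO cells the 5p arm alone was called lower. In Cre, the 5p arm fell by 3.81 on the log2 scale (SE 0.51, edgeR adjusted p = 3.77e-06) and the 3p arm fell by 5.24 (SE 0.47, edgeR adjusted p = 3.19e-08), with 719, 694 and 486 CPM of the 5p arm in Th2 libraries against 8976, 4624 and 6384 CPM in naive libraries. Of 98 miRNAs, 19.4% were called lower in this comparison. In AGO2KO, the 5p arm fell by 1.55 (SE 0.38, edgeR adjusted p = 0.00361, 13.3% called lower), although in CPM its Th2 libraries (3942 to 7641) overlapped the naive ones (6830 to 24624), and the 3p arm had a log2 fold change of 0.34 (95% interval -0.32 to 0.99, edgeR adjusted p = 0.382). In CPM all 4 AGO2KO Th2 libraries (6297 to 8198 CPM) lay above all 4 naive ones (2675 to 6082 CPM) for the 3p arm, as for 31.6% of miRNAs on that scale. The sign of the 3p log2 fold change in AGO2KO changed with the scaling, between -0.08 with loess offsets and 1.44 relative to the STD entries (edgeR adjusted p = 0.00598). On the STD scale the median of all miRNAs was 1.66 in AGO2KO and 3.3 in Cre. Relative to the STD entries the 5p change was called in neither genotype, at -0.52 in AGO2KO (edgeR adjusted p = 0.364) and -1.18 in Cre (edgeR adjusted p = 0.0539). The difference of these changes, AGO2KO minus Cre, was 5.58 for the 3p arm (SE 0.57, edgeR adjusted p = 2.58e-07) and 2.26 for the 5p arm (SE 0.61, edgeR adjusted p = 0.0163), where 9.18% of 98 miRNAs were called higher. The 3p call held under each alternative run. The 5p call was lost without naive Cre library A (1.301, edgeR adjusted p = 0.237) or C (2.08, edgeR adjusted p = 0.0777), without Cre Th2 library A, B or C (1.84, 1.78 and 1.63, edgeR adjusted p = 0.0740, 0.0791 and 0.119), with no filter on low counts (1.67, edgeR adjusted p = 0.109) and relative to the STD entries (0.66, edgeR adjusted p = 0.509). It was also lost with the replicate letters as a block (2.22, edgeR adjusted p = 0.0641). Without naive Cre libraries B and C together, which leaves library A alone in that group, the 5p value was 2.30.

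Between Th2 and naive cells of the AGO2 experiment the arm ratio rose in AGO2KO, and its change in Cre was not called. In AGO2KO it was 1.65, 1.44, 1.07 and 1.41 in Th2 libraries D to G against 0.247, 0.362, 0.827 and 0.340 in naive libraries D to G, so that the 2 sets did not overlap, as for 14.5% of 62 hairpins with Th2 higher. Here too miR-150 was the only hairpin whose majority arm was 3p in every Th2 library and 5p in every naive library. The Th2 libraries D to G held 33741, 13022, 46721 and 52059 miRNA counts, and the naive libraries D to G held 20224, 12708, 7614 and 12320. The part of depth in this difference was not tested. The ratio rose by 1.84 on the log2 scale (SE 0.39, edgeR adjusted p = 5.90e-05, two-sided exact permutation p = 0.0286, the smallest for 4 against 4), where 9.68% of 62 hairpins were called higher. A larger increase was seen in 13 of these hairpins. With limma on the log2 ratio the increase for miR-150 was 1.78 with an adjusted p of 0.0694. In Cre the ratio was 0.490, 0.480 and 0.5 in Th2 libraries, against 0.546, 1.75 and 2.85 in naive libraries (-1.295 with SE 0.55, edgeR adjusted p = 0.235). Without naive Cre library A this value passed (-2.39, edgeR adjusted p = 0.00118), whereas it was -0.42 without library C and -0.15 without B and C together (edgeR adjusted p = 1 for both). The difference of the changes, AGO2KO minus Cre, was 3.13 (SE 0.68, edgeR adjusted p = 0.000282), and miR-150 was the only hairpin called, 1.61% of 62. A larger difference was seen in 6 of these hairpins, which were not called. Without naive Cre libraries B and C together the difference for miR-150 was 2.02 (edgeR adjusted p = 0.117).

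**Figure D3:**
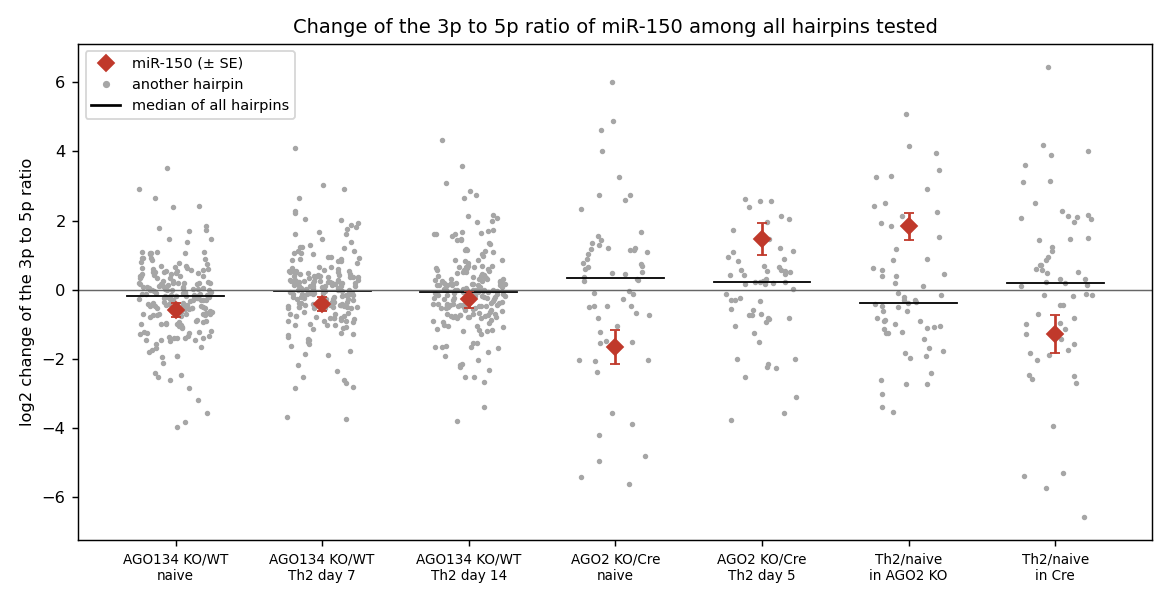
Change of the 3p to 5p ratio on the log2 scale in 7 comparisons, with miR-150 as a red diamond (± SE), every other hairpin tested as a grey point and a black bar at the median of all. In AGO2KO Th2 cells miR-150 lies at 1.48 over Cre, with 8 of 62 hairpins above it, and at 1.84 over naive AGO2KO, with 13 above it. In the 3 AGO134KO comparisons it lies between -0.58 and -0.28. In each of these it lies within the cloud of the other hairpins.

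In naive cells of the AGO1/3/4 experiment the 5p arm was higher in AGO134KO and the 3p arm was not called. miR-150-5p stood at 37037, 34188, 34463 and 41420.2 CPM in naive AGO134KO libraries 1 to 4, against 28616, 27651, 30812 and 30996 CPM in naive WT libraries 1 to 4. Every knockout library lay above every WT library, which held with AGO134KO higher for 1.31% of the 382 miRNAs tested. The 5p arm was among the 5 most abundant mature names in all 8 of these libraries. After TMM scaling it rose 1.61-fold, with an estimate of 0.68 on the log2 scale (SE 0.15) and an adjusted p of 0.00236 in edgeR. By comparison 8.12% of miRNAs were called higher, and the median over all was -0.05. miR-150-3p stood at 7063, 7264, 7539 and 4978 CPM in AGO134KO, against 8722, 8708, 7638 and 7197 CPM in WT, with overlap. Its log2 fold change was 0.06 (95% interval -0.21 to 0.34, edgeR adjusted p = 0.767). AGO134KO library 4, the shallowest with 89594 miRNA counts, had the highest 5p and the lowest 3p level of its group, and without it the 5p value was 0.52 (edgeR adjusted p = 0.00673).

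The size of this 5p difference depended on how libraries were scaled. It was 0.84 with DESeq2 size factors (edgeR adjusted p = 0.00321) and 0.32 with library size alone (edgeR adjusted p = 0.0308), both called. It was not called with loess offsets against abundance (0.23, edgeR adjusted p = 0.126) or with the naive groups fitted alone (0.74, edgeR adjusted p = 0.0681). Relative to the STD entries it had the opposite sign (-0.16, edgeR adjusted p = 0.247), where the median of all 382 miRNAs moved to -0.77. Per 1000 STD counts the 5p arm had 36.7, 36.2, 39.1 and 31.4 counts in AGO134KO, against 42.7, 38.8, 39.4 and 39.7 in WT. On that scale the groups overlapped, and the 3p arm was lower in AGO134KO (-0.71, edgeR adjusted p = 0.00666).

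At Th2 day 7 neither arm passed the test between AGO134KO and WT. miR-150-5p stood at 21916, 21695, 21251 and 16678 CPM in AGO134KO libraries 1 to 4, against 19599, 20393, 19319.6 and 19365 CPM in WT, and library 4 of the knockout lay below every WT library. Its log2 fold change was 0.36 (95% interval 0.06 to 0.65, edgeR adjusted p = 0.121), where 14.4% of 382 miRNAs were called in either direction. The sign was reversed with loess offsets (-0.07) and relative to the STD entries (-0.24), and the value passed with the day 7 groups fitted alone (0.29, edgeR adjusted p = 0.0420). miR-150-3p stood at 3559, 4448, 4728 and 3756 CPM in AGO134KO, against 5619, 5261, 5009 and 5325 CPM in WT. All 4 knockout libraries were below all 4 WT libraries, as for 23.6% of miRNAs on this scale. After TMM scaling its log2 fold change was -0.05 (95% interval -0.33 to 0.22, edgeR adjusted p = 0.894), and relative to the STD entries -0.66 (edgeR adjusted p = 0.0230). On the STD scale the median of all 382 miRNAs was -0.63, so the 3p value was near that of miRNAs in general.

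At Th2 day 14 the 5p arm was again higher in AGO134KO. It stood at 13832, 13519 and 10179 CPM in AGO134KO libraries 2, 3 and 4, against 10041, 10246 and 7276 CPM in WT libraries 1, 2 and 3, with knockout library 4 inside the WT range. The log2 fold change was 0.62 (SE 0.17, edgeR adjusted p = 0.0106), where 8.9% of miRNAs were called higher. The call was lost without AGO134KO library 3 (0.50, edgeR adjusted p = 0.0887), WT library 1 (0.68, edgeR adjusted p = 0.0575) or WT library 3 (0.46, edgeR adjusted p = 0.167), with DESeq2 size factors (0.57, edgeR adjusted p = 0.0676) and relative to the STD entries (0.15, edgeR adjusted p = 0.496). miR-150-3p stood at 2239, 1843 and 1922 CPM in AGO134KO, against 2119, 2176 and 1205 CPM in WT, with overlap (log2 fold change 0.29, 95% interval -0.04 to 0.61, edgeR adjusted p = 0.237).

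**Figure D4:**
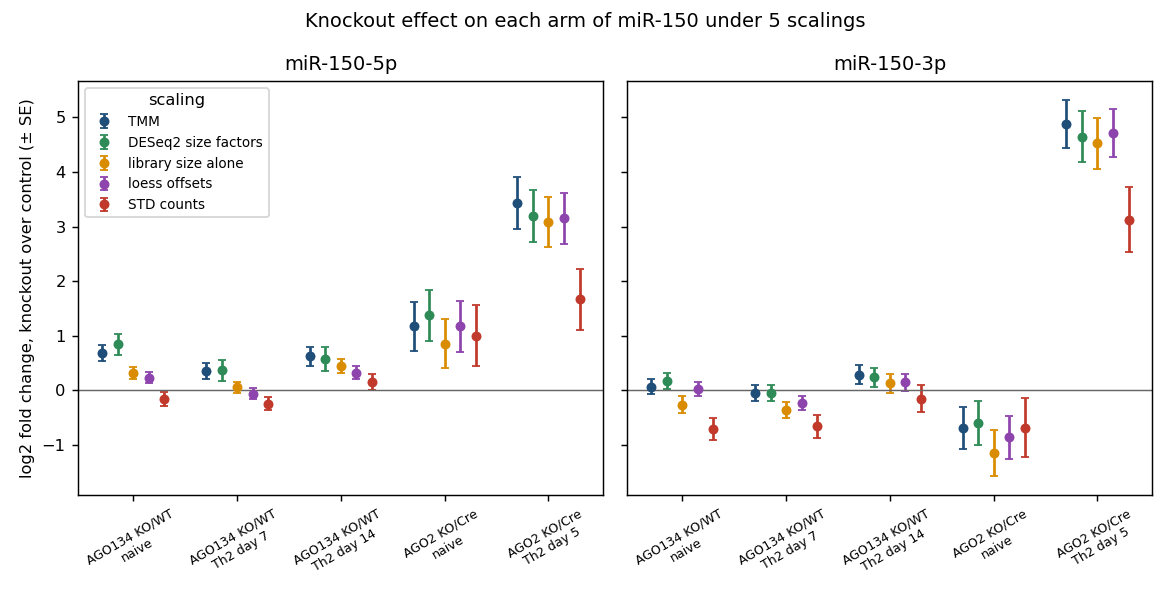
Log2 fold change of each arm, knockout over control (± SE), in the 5 genotype comparisons under 5 scalings, with miR-150-5p on the left and miR-150-3p on the right. In AGO2KO Th2 cells every scaling gives a value of 1.67 or more, whereas the values for AGO134KO lie between -0.71 and 0.84 and change sign with the scaling in some comparisons.

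The loss of AGO1, AGO3 and AGO4 went with a lower 3p to 5p ratio in naive and day 7 libraries, without passing the test across hairpins. The ratio was 0.191, 0.212, 0.219 and 0.120 in naive AGO134KO libraries, against 0.305, 0.315, 0.248 and 0.232 in naive WT libraries. At day 7 it was 0.162, 0.205, 0.222 and 0.225 in AGO134KO, against 0.287, 0.258, 0.259 and 0.275 in WT. At both stages the genotypes did not overlap, as for 9.41% (naive) and 8.91% (day 7) of 202 hairpins with AGO134KO lower. The differences were -0.58 (SE 0.20, edgeR adjusted p = 0.0519) in naive cells and -0.42 (SE 0.20, edgeR adjusted p = 0.255) at day 7 on the log2 scale. Two-sided exact permutation tests gave p = 0.0286 at both stages, the smallest that 4 against 4 allow, and 0.105 after adjustment over 11 tests. At day 14 the ratio was 0.162, 0.136 and 0.189 in AGO134KO, against 0.211, 0.212 and 0.166 in WT, with overlap (-0.28 with SE 0.24, edgeR adjusted p = 0.641). A larger decrease was seen in 64, 68 and 79 of the 202 hairpins when naive, at day 7 and at day 14. The naive difference passed when both arms were required to hold at least 10 counts (edgeR adjusted p = 0.0461), without AGO134KO library 3 (-0.68, edgeR adjusted p = 0.0353) and without WT library 4 (-0.66, edgeR adjusted p = 0.0356). It was -0.40 without AGO134KO library 4 (edgeR adjusted p = 0.251) and -0.59 with limma on the log2 ratio (adjusted p = 0.106). The arms share a library, so these ratios do not depend on the scaling between libraries.

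The 2 knockout effects in Th2 cells were compared in a fit over all 36 libraries, although the days differ. The AGO2KO effect at day 5 exceeded the AGO134KO effect at day 7 by 4.94 on the log2 scale for the 3p arm (SE 0.35, edgeR adjusted p = 1.06e-16) and by 3.09 for the 5p arm (SE 0.41, edgeR adjusted p = 6.55e-08), where 10.1% of 376 miRNAs were called higher. For the ratio the difference was 1.89 (SE 0.43, edgeR adjusted p = 0.000592), where 2.03% of 197 hairpins were called higher. A larger difference was seen in 39 of these hairpins. With limma on the log2 ratio the difference for miR-150 was 1.88, with an adjusted p of 0.0757. Genotype background, day and depth differ between the experiments and cannot be told apart from the knockouts in this comparison.

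During Th2 culture in the AGO1/3/4 experiment both arms declined stepwise in both genotypes. In AGO134KO cells miR-150-5p averaged 36777 ± 3351, 20385 ± 2487 and 12510 ± 2025 CPM when naive, at day 7 and at day 14 (SD, n = 4, 4 and 3), and miR-150-3p averaged 6711 ± 1172, 4123 ± 555 and 2001 ± 209 CPM. In WT cells miR-150-5p averaged 29519 ± 1649, 19669 ± 498 and 9188 ± 1658 CPM and miR-150-3p averaged 8066 ± 770.3, 5304 ± 251 and 1833 ± 545 CPM. Day 7 over naive, the 5p arm fell by 1.20 in AGO134KO and by 0.87 in WT on the log2 scale (edgeR adjusted p = 5.00e-08 and 6.65e-06), where 34.3% and 36.9% of 382 miRNAs were called lower. Over the same step the 3p arm fell by 1.003 in AGO134KO and by 0.89 in WT (edgeR adjusted p = 3.75e-07 and 1.82e-06). Relative to the STD entries this first step was called for 1 of the 4, the 5p arm of AGO134KO (-0.33, edgeR adjusted p = 0.0169), and the other 3 values lay between -0.28 and -0.24. Day 14 over day 7, the 5p arm fell by 0.72 in AGO134KO and by 0.99 in WT (edgeR adjusted p = 0.000689 and 1.38e-05), where 23.3% and 24.9% of miRNAs were called lower. Over that step the 3p arm fell by 1.08 in AGO134KO and by 1.42 in WT (edgeR adjusted p = 2.51e-06 and 2.04e-08). Without AGO134KO day 14 library 4 the 5p value in AGO134KO was -0.48 (edgeR adjusted p = 0.0778). None of the 4 differences of these changes between AGO134KO and WT was called, with values of -0.33 and -0.12 for the 5p and 3p arms in the first step and 0.26 and 0.34 in the second (edgeR adjusted p = 0.606, 0.836, 0.539 and 0.357), where 2.36% and 12% of miRNAs were called in either direction.

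**Figure D5:**
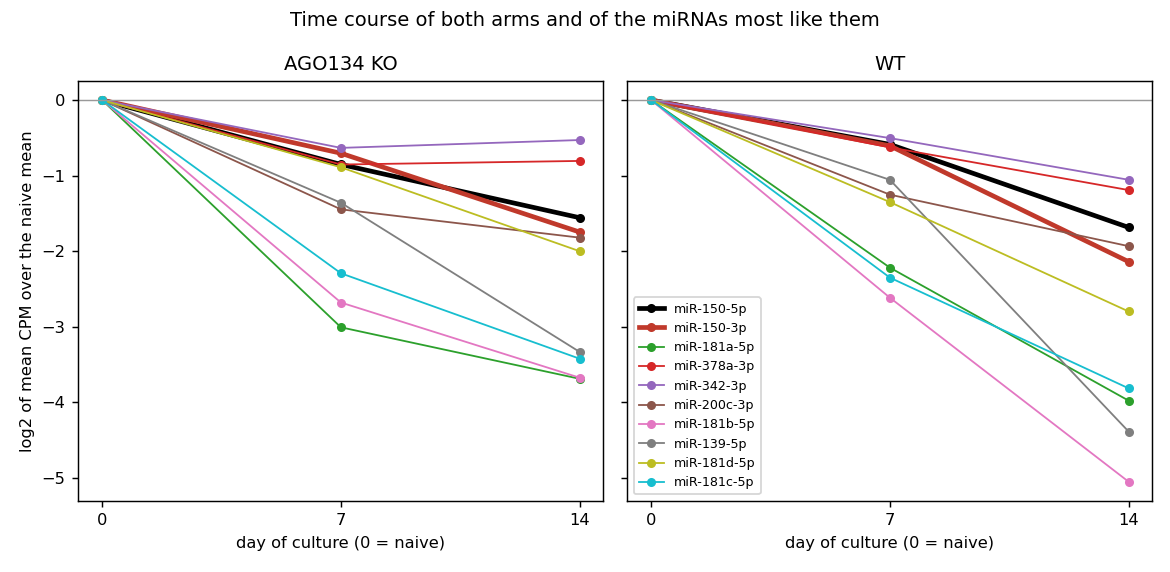
Mean CPM of both arms of miR-150 (thick lines) and of the miRNAs most like them (thin lines) at day 0, 7 and 14 of culture, as the log2 of the level over the naive mean, in AGO134KO (left) and WT cells (right). Both arms decline at each step in both genotypes, and miR-181a-5p and miR-181b-5p have larger declines than either arm by day 7.

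Across the 22 libraries of the AGO1/3/4 experiment the levels of the 2 arms had a Pearson correlation of 0.920. Of 292 other miRNAs with a group mean of at least 100 CPM, miR-181a-5p, which tunes T cell receptor sensitivity, was most like miR-150-5p (r = 0.938), followed by miR-378a-3p (0.933), miR-342-3p (0.910), miR-200c-3p (0.909) and miR-181b-5p (0.908). Most like miR-150-3p were miR-139-5p (r = 0.973), miR-181d-5p (0.951), miR-181b-5p (0.949), miR-181a-5p (0.923) and miR-181c-5p (0.920). These points share libraries, depth and 3 stages of culture, and the correlations are descriptions. miR-181a-5p, named for both arms, averaged 37026 ± 6446 CPM in naive AGO134KO and 31330 ± 1408 CPM in naive WT cells (SD, n = 4 each), a log2 fold change of 0.62 (edgeR adjusted p = 0.00543). Day 7 over naive, it fell by 3.37 in AGO134KO and fell by 2.51 in WT on the log2 scale, more than miR-150-5p in both. In AGO2KO Th2 cells it averaged 1287 ± 868 CPM, against 614 ± 172 CPM in Cre Th2 cells (1.42 on the log2 scale, edgeR adjusted p = 0.0223), a smaller increase than that of either arm of miR-150.

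Most other miRNAs known to be lost when T cells are activated were not called between AGO2KO and Cre Th2 cells. Of 26 such miRNAs, 18 were tested in the AGO2 experiment. Th2 over naive, 6 of these were called lower and 2 higher in Cre, beside 19 lower and 36 higher of all 98. In AGO2KO 7 were called lower and 5 higher, beside 13 lower and 37 higher of all 98. Many of the list were thus not lost in these cultures. In AGO2KO over Cre Th2 cells 3 rose, 2 fell and 13 did not pass, beside 44.9% of all 98 called in either direction, with a median log2 fold change of 0.51 against 0.06 over all 98. Among them miR-26a-5p averaged 66568 ± 16012 CPM in AGO2KO and 37756 ± 2678 CPM in Cre cells (SD, n = 4 and 3, log2 fold change 1.10, edgeR adjusted p = 0.0140), and let-7d-5p averaged 22236 ± 3030.3 CPM in AGO2KO and 47128 ± 2161 CPM in Cre cells (-0.78, edgeR adjusted p = 0.0462). The other 2 of the 4 most abundant, let-7a-5p and let-7f-5p, were not called (0.25 and 0.36, edgeR adjusted p = 0.558 and 0.437). In Cre cells let-7d-5p was higher in Th2 culture than in naive cells (2.19, edgeR adjusted p = 5.81e-05). In the AGO1/3/4 experiment all 26 were tested. Day 7 over naive, 20 were called lower and 1 higher in AGO134KO, beside 131 lower and 152 higher of all 382. In WT 19 were called lower and 2 higher, beside 141 lower and 151 higher. In AGO134KO over WT 11 rose and 1 fell in naive cells (median log2 fold change 0.35, against -0.05 over all 382), where 18.3% of all were called. At day 7 edgeR called 6 higher and 0 lower (median 0.29, against -0.02), where 14.4% of all were called, and at day 14 it called 7 higher and 1 lower (median 0.26, against 0.01), where 19.6% of all were called. let-7 members share reads with near-identical relatives, so their separate values are uncertain.

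Of 22 miRNAs known to be induced on activation, 11 were tested in the AGO2 experiment. In AGO2KO over Cre Th2 cells 1 rose, 2 fell and 8 did not pass (median log2 fold change -0.04, against 0.06 over all 98), beside 44.9% of all called in either direction. Of the 4 most abundant, miR-183-5p was called lower (-1.33, edgeR adjusted p = 0.0321). Neither miR-182-5p (-0.43, edgeR adjusted p = 0.425) nor miR-21a-5p (-0.04, edgeR adjusted p = 0.932) was called. miR-155-5p, a miRNA that activated T cells require, averaged 10301 ± 2421 CPM in AGO2KO and 15484 ± 690.3 CPM in Cre cells (log2 fold change -0.22, edgeR adjusted p = 0.612). Its Th2 over naive change was called in both genotypes, at 1.21 in AGO2KO (edgeR adjusted p = 0.00846) and 1.63 in Cre (edgeR adjusted p = 0.00347), beside the opposite course of miR-150-5p. miR-15a, miR-16 and miR-34a are, like miR-150, known to target Myb, as shown in human cells. Of these miR-16-5p alone was tested in the AGO2 experiment, where it averaged 6204 ± 1945 CPM in AGO2KO and 2650.2 ± 316 CPM in Cre Th2 cells (log2 fold change 1.49, edgeR adjusted p = 0.000754). In naive cells miR-16-5p had a log2 fold change of 0.38 in AGO134KO over WT (edgeR adjusted p = 0.00429) and miR-15a-5p one of 0.62 (edgeR adjusted p = 0.0321), both called higher beside 18.3% of all miRNAs called in either direction. miR-34a-5p was not called there, with 6.00 ± 5.04 CPM in AGO134KO and 1.63 ± 1.89 CPM in WT (SD, n = 4 each, log2 fold change 1.67, edgeR adjusted p = 0.426). At day 7 edgeR called none of the 3 (log2 fold changes of 0.16, -0.02 and 0.19 for miR-16-5p, miR-15a-5p and miR-34a-5p, adjusted p = 0.332, 0.977 and 0.739), beside 14.4% of all. At day 14 miR-16-5p rose (0.56, edgeR adjusted p = 0.000270), miR-34a-5p fell (-0.83, edgeR adjusted p = 0.0280) and miR-15a-5p did not pass (0.52, edgeR adjusted p = 0.0879), beside 19.6% of all. These values of other miRNAs are after TMM scaling, and relative to the STD entries the median of all miRNAs shifted to -0.77 in naive AGO134KO over WT and to -1.59 in AGO2KO over Cre Th2 cells.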

How the data were processed

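Small RNA was counted in 36 libraries. The authors deposited whole-number counts for each mature miRNA, per the file headers. The labels name a TruSeq library read from a single end, and the text of the series names paired ends. GRCm38 was the build, per the submitters' processing notes. No aligner or counter is named by the sources used here. Each table held 2110 miRNA entries and 9 STD entries, which took 32.0% to 86.7% of counts and were left out of library sizes and tests. miR-5099 took 0.599% to 1.51% of miRNA counts in the AGO1/3/4 experiment and 7.97% to 57.0% in the AGO2 experiment. Levels are counts per 1e6 (CPM) over all miRNA entries.

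For tests, the entry with the highest total was kept for each of the 1966 names. The main test was edgeR's quasi-likelihood test (version 4.0.16, R 4.3.3) after TMM scaling, with filterByExpr at its minimum of 10 counts, a mean per group, and Benjamini-Hochberg adjustment over all miRNAs tested. A call is an adjusted p under 0.05. Arm ratios were tested in edgeR on paired 5p and 3p counts of all hairpins with a term per library, beside a two-sided exact permutation test (scipy 1.17.1) of the log2 ratio with a pseudocount of 0.5. limma 3.58.1 and DESeq2 1.42.0 served as alternatives. Fits were tested on simulated counts. There the ratio test recovered 2 of 20 hairpins changed 4-fold in the AGO2 experiment and 10 of 20 in the AGO1/3/4 experiment. Intervals are 95% and cover counting error only where given for a library. miRNAs likest to an arm are the 5 with the highest r of log2 CPM (TMM, prior count 2), and up to 4 members of a list were named by their mean CPM. The members, lists and tests were chosen with earlier results of these data known, and the ratio differences between genotypes and between knockouts were added after seeing the data. The main fits did not pair samples by replicate number or letter, and the labels do not say whether these mark shared animals. The pairs' correlations of deviations lay between -0.306 and 0.150. With so few libraries per group, some of them shallow, such correlations cannot exclude shared animals.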

Additional observations from a re-analysis of the deposited data

Results flagged for a closer look

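Of 18 values per group tested for a sample far from the others, 1 stood out: miR-150-5p in AGO134KO Th2 day 7 library 4, at 16678 CPM beside 21251 to 21916 CPM in the other 3 libraries of its group. Chance marks about 1 in 20 such groups.

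Effects differed between groups by a test of the difference itself in 6 cases. The Th2 over naive change in AGO2KO minus that in Cre was 2.26 for miR-150-5p (edgeR adjusted p = 0.0163), 5.58 for miR-150-3p (edgeR adjusted p = 2.58e-07) and 3.13 for the 3p to 5p ratio (edgeR adjusted p = 0.000282), all on the log2 scale. In CPM all 3 Cre Th2 libraries lay below all 3 naive Cre libraries for both arms. After TMM scaling 19.4% of 98 miRNAs were called lower in that comparison. All 4 AGO2KO Th2 libraries lay above all 4 naive AGO2KO libraries in CPM for the 3p arm, as for 31.6% of miRNAs. For the 5p arm they overlapped. After TMM scaling the 3p change in AGO2KO was not called (0.34, edgeR adjusted p = 0.382), the median of all miRNAs was 0.54, and the sign of the 3p value changed with the scaling. The AGO2KO effect in Th2 cells minus the AGO134KO effect at day 7 was 3.09 for miR-150-5p (edgeR adjusted p = 6.55e-08), 4.94 for miR-150-3p (edgeR adjusted p = 1.06e-16) and 1.89 for the ratio (edgeR adjusted p = 0.000592). All 4 AGO2KO libraries were above all 3 Cre libraries in each of these measures, and no AGO134KO library was above every WT library for the ratio or the 3p arm.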

How the results depend on the processing

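Each test was repeated with DESeq2, with 4 other scalings, with no filter on low counts, with only the groups compared, without each library in turn and, for ratios, with limma and with both arms at 10 counts or more. Of 30 results on the levels of the arms, direction and call held for 29 with library size alone, 28 with DESeq2 size factors, 27 with DESeq2, 27 with loess offsets and 16 relative to the STD entries. The increase of both arms in AGO2KO over Cre Th2 cells held in all of them. Values are on the log2 scale, and the cause of each change was not tested.

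Relative to the STD entries, the changes with another sign or call were, for AGO134KO over WT, -0.16 (5p) and -0.71 (3p) when naive, -0.24 and -0.66 at day 7, and 0.15 and -0.15 at day 14. The medians of all miRNAs on that scale were -0.77, -0.63 and -0.44 at these stages. For day 7 over naive they were -0.25 (5p, WT), -0.28 (3p, WT), -0.24 (3p, AGO134KO) and 0.046 (3p, AGO134KO minus WT). For Th2 over naive they were -0.52 (5p, AGO2KO), 1.44 (3p, AGO2KO), -1.18 (5p, Cre) and 0.66 (5p, AGO2KO minus Cre), where the median of all miRNAs was 1.66 in AGO2KO and 3.3 in Cre. Library size alone gave -0.26 for the 3p arm in naive AGO134KO over WT. The 3p change in AGO2KO Th2 over naive was -0.066 with DESeq2 and -0.066 with its size factors in edgeR, -0.080 with loess offsets, -0.045 without miR-5099 and -0.0056 with only the groups compared. For the 5p arm in AGO134KO over WT, loess offsets gave 0.23 when naive and -0.067 at day 7, the groups alone gave 0.74 and 0.29, and at day 14 DESeq2 and its size factors both gave 0.57. The 5p arm in naive AGO2KO over Cre was called with DESeq2 (1.40) and with no filter (1.46), and its AGO2KO minus Cre difference was not called with no filter (1.67). Without naive Cre libraries B and C together, that difference was 2.30, the ratio difference 2.02 and the naive 3p value 0.55. Among ratios, both arms at 10 counts or more gave calls for naive AGO134KO (-0.58) and AGO2KO (-1.65), and limma ended the calls of AGO2KO over Cre in Th2 cells (1.47), of Th2 over naive in AGO2KO (1.78) and of AGO2KO minus AGO134KO (1.88).

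With 1 library left out, the values that lost or gained a call or changed sign ran between -0.68 and -0.40 (naive AGO134KO ratio), -2.79 and -0.82 (naive AGO2KO ratio), 1.39 and 1.60 (AGO2KO Th2 ratio), -0.035 and 0.26 (ratio, day 7 over naive, AGO134KO), -0.094 and 0.052 (the same in WT), -2.39 and -0.42 (ratio, Th2 over naive, Cre), -0.14 and 0.023 (3p, AGO134KO day 7), -0.80 and 0.17 (3p, naive AGO2KO), -0.21 and 0.41 (3p, Th2 over naive, AGO2KO), 0.46 and 0.80 (5p, AGO134KO day 14), 0.87 and 2.02 (5p, naive AGO2KO), -0.81 and -0.48 (5p, day 14 over day 7, AGO134KO) and 1.301 and 2.57 (5p, AGO2KO minus Cre).

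The main fits did not pair samples by replicate number or letter, and whether these mark shared animals is not known. With the replicate numbers and letters as a block, 23 of 24 level results kept direction and call, and the 5p difference AGO2KO minus Cre was 2.22 (edgeR adjusted p = 0.0641). limma with the replicate block gave ratio values of 3.24 (AGO2KO minus Cre, adjusted p = 0.0676) and 1.78 (AGO2KO Th2 over naive, adjusted p = 0.108). The few counts of the arms in naive Cre libraries limit every comparison that uses them.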

Other observations

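Relative to the STD entries, the Cre Th2 libraries held 1.15, 1.48 and 0.843 counts of miR-150-5p per 1000 STD counts, against 5.23, 0.707 and 1.57 in the naive Cre libraries. On that scale naive Cre library B lay below every Cre Th2 library. For miR-150-3p the values were 0.564, 0.708 and 0.421 in Cre Th2 libraries, against 2.86, 1.24 and 4.47 in naive Cre libraries, with no overlap. In AGO2KO the 3p arm had 4.27, 3.42, 4.98 and 7.16 counts per 1000 STD counts in Th2 libraries D to G, against 2.59, 1.14, 1.75 and 1.78 in naive libraries D to G, again with no overlap and in the opposite direction. On that scale most miRNAs were higher in Th2 than in naive libraries, with a median log2 fold change of 1.66 in AGO2KO and 3.3 in Cre. The higher 3p values in AGO2KO are thus not particular to this arm. The share of miRNAs without overlap on that scale was not counted.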
